A study of Rattus norvegicus with 24 samples.

Results

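Interneurons of the nucleus accumbens (NAc) were followed through 10 genes that mark them or that they release: the calcium-binding proteins Pvalb and Calb2, the neuropeptides Sst, Npy, Vip and Crh, the nitric oxide synthase Nos1, the transcription factor Lhx6 and the GABA-synthesising enzymes Gad1 and Gad2. These 10 were taken by name from the 32545 genes of the deposited table, and all 10 had a row there. RNA of the NAc of adult male Sprague Dawley rats, aged 8 weeks on arrival, was sequenced in 24 libraries, 4 labelled as biological replicates in each of 6 groups. The study's methods give a larger number of sequenced samples per group, and only the labelled libraries were used here. In the injection experiment rats received 5 intraperitoneal injections of saline or of 250 µg/kg lipopolysaccharide (LPS, a bacterial immune stimulant) spread over about 2 weeks. After a pause they received saline or heroin on 5 days, with the heroin dose raised from 1 to 5 mg/kg, and per the labels the tissue was taken 1 h after the last injection. The study's methods place a locomotor test between that injection and the taking of the tissue, and count the interval from the end of the test. Named for the first and the following treatment, its groups were LPS-Heroin, LPS-Saline, Saline-Heroin and the control, Saline-Saline. In the self-administration (SA) experiment, rats with jugular catheters worked for saline (Saline-SA) or for 0.075 mg/kg heroin per infusion (Heroin-SA) in 10 daily sessions of 6 h, and the tissue was taken directly after the last session. The labels name no transgene, and no LPS in the SA rats.

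Each library held 12312878 to 18850240 reads on genes. As a description of the tissue, 14 genes of medium spiny neurons, the projection neurons that make up most of the NAc, were looked up. All 14 were measured in every library, which does not tell the NAc from other tissue that holds such neurons. Ppp1r1b, which encodes DARPP-32, ran from 488 to 1452 FPKM (fragments relative to the length of the gene and the size of the library). Other markers differed between libraries. Saline-Saline replicate 1 held 347 FPKM summed over 6 genes of choroid plexus and ependyma, most of it Ttr at 318 FPKM, and no other library held more than 32.1 FPKM. Summed over 10 genes of thalamus and hypothalamus, Saline-Heroin replicate 2 held 129 FPKM and Saline-Saline replicate 1 held 78.8 FPKM, and no other library held more than 57.3 FPKM. Mitochondrial reads took 6.82% to 9.10% of reads in the injection libraries and 10.0% to 15.9% in the SA libraries.

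Interneurons are a small share of NAc neurons, but they set the timing of the medium spiny neurons through GABA, peptides and nitric oxide. Most arise in the medial ganglionic eminence, where LHX6 acts downstream of NKX2-1 and is needed for the later parvalbumin and somatostatin fates. Fast-spiking cells hold parvalbumin, a separate class holds somatostatin, neuropeptide Y and neuronal nitric oxide synthase together, and others hold calretinin, the product of Calb2, or VIP. GAD1 and GAD2 (GAD67 and GAD65) make GABA from glutamate, and medium spiny neurons use them as well, so their RNA in bulk NAc is not particular to interneurons. In bulk tissue, fewer cells of a type and less RNA per cell cannot be told apart.

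Promoters are shown for 6 of the 10 genes, and they come from RefSeq on the GRCr8 assembly, which differs from the rn6 build of the deposited table, and run from 250 bases before to 50 bases after the annotated start. Of the 10 genes, 8 matched by symbol, and none is shown for Crh and Calb2, which did not. Sst, Nos1 and Vip are shown first because they hold the cAMP response element, in its full form TGACGTCA or its shorter form TGACGTC, and Sst also holds the homeodomain core TAATTA. Capitals mark these motifs, which were searched on both strands, and the short form lies inside the full form wherever the full form occurs. The Sst promoter is chr11:90461296-90461595 (plus strand), that of Nos1 is chr12:44371788-44372087 (minus strand) and that of Vip is chr1:44470230-44470529 (plus strand).
Sst: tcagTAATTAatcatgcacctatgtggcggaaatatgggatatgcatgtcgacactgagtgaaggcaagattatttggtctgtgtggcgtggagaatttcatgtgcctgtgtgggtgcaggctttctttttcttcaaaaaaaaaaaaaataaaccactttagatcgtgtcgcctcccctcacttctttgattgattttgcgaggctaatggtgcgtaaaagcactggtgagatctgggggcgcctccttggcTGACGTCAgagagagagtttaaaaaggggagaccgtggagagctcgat
Nos1: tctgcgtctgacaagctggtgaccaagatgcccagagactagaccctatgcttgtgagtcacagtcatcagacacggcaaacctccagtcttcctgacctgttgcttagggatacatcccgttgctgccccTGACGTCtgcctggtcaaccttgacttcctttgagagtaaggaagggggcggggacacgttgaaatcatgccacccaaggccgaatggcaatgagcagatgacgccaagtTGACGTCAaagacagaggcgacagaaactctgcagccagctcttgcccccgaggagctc
Vip: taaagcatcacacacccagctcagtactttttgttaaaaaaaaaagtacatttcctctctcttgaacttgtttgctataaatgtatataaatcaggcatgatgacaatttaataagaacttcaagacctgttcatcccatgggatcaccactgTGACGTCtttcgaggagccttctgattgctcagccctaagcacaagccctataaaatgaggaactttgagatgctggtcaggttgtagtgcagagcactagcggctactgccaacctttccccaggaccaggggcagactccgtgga

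TGACGTCA was found in the promoters of Sst and Nos1 and in 1.83% of all 33469 rat promoters of this length. TGACGTC was found in those of Sst, Nos1 and Vip and in 3.22% of all, and TAATTA in that of Sst and in 5.36% of all. A match of letters is a description of the window and was not tested as a binding site. The next 3 promoters are those of the genes whose levels separated LPS-Heroin from Saline-Saline, and none of the 3 motifs occurs in them. They are chr3:39853374-39853673 for Lhx6 (minus strand), chr3:75777202-75777501 for Gad1 (plus strand) and chr17:89671468-89671767 for Gad2 (plus strand).
Lhx6: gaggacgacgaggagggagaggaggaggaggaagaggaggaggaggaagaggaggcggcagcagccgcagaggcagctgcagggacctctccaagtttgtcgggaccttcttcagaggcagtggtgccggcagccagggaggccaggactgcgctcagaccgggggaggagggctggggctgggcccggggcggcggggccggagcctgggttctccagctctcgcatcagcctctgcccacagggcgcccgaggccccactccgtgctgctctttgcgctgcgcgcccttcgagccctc
Gad1: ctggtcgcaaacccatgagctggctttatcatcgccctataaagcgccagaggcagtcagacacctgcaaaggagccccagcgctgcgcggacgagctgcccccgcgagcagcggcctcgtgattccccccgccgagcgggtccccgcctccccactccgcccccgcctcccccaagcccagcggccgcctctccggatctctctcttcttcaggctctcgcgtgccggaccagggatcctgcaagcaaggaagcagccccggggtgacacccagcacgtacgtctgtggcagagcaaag
Gad2: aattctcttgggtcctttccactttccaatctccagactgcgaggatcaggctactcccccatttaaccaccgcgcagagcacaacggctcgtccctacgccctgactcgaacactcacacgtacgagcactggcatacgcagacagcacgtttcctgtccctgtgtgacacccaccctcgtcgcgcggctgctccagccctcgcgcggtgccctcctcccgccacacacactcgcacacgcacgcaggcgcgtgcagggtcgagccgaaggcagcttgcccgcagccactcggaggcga

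Levels are given in FPKM, which is scaled by gene length, so that genes can be set beside each other. Sst (ENSRNOG00000001837, chr11:80358211-80359444 in rn6) stood highest, at a mean of 462 FPKM over the 24 libraries. Gad1 (ENSRNOG00000000007, chr3:56861396-56902157) and Gad2 (ENSRNOG00000018200, chr17:89171250-89238040) followed at 136 and 133 FPKM. Pvalb (ENSRNOG00000006471, chr7:119429019-119441487) was at 42.6 FPKM and Calb2 (ENSRNOG00000016977, chr19:41482728-41509658) at 26.9 FPKM. Thus a peptide gene of a sparse cell class stood above the enzymes that nearly all NAc neurons use. Vip (ENSRNOG00000018808, chr1:42169501-42177579) was at 8.04 FPKM, Lhx6 (ENSRNOG00000005996, chr3:15411939-15433252) at 7.69 FPKM, Nos1 (ENSRNOG00000001130, chr12:44213943-44520341) at 5.31 FPKM and Crh (ENSRNOG00000012703, chr2:104459999-104461863) at 3.60 FPKM. Lhx6 shares bases with the annotated element uc_338, and Nos1 with Fbxo21, each on the same strand, so the values of both are uncertain by the reads of that neighbour.

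The spread between libraries differed as much as the levels. From the lowest to the highest of the 24 libraries, Gad1 spanned 1.76-fold (99.1 to 174.8 FPKM), Gad2 1.92-fold and Sst 1.98-fold. Nos1 spanned 3.70-fold, Pvalb 4.29-fold, Lhx6 4.91-fold and Vip 6.54-fold. Calb2 spanned 8.73-fold and Crh 12.6-fold, the latter on 13 to 157 reads per library, the fewest of the 9 members that could be tested. When the 6 groups of any member were ordered by their means, every group's range of libraries overlapped that of the next group in the order. The Sst mean was lowest in the Saline-Saline group, at 392 ± 54.0 FPKM (SD, n = 4), and highest in Heroin-SA, at 552 ± 32.3 FPKM. The Lhx6 mean was highest in Saline-Saline, at 11.1 ± 2.004 FPKM, and lowest in Heroin-SA, at 5.83 ± 1.10 FPKM.

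**Figure D1:**
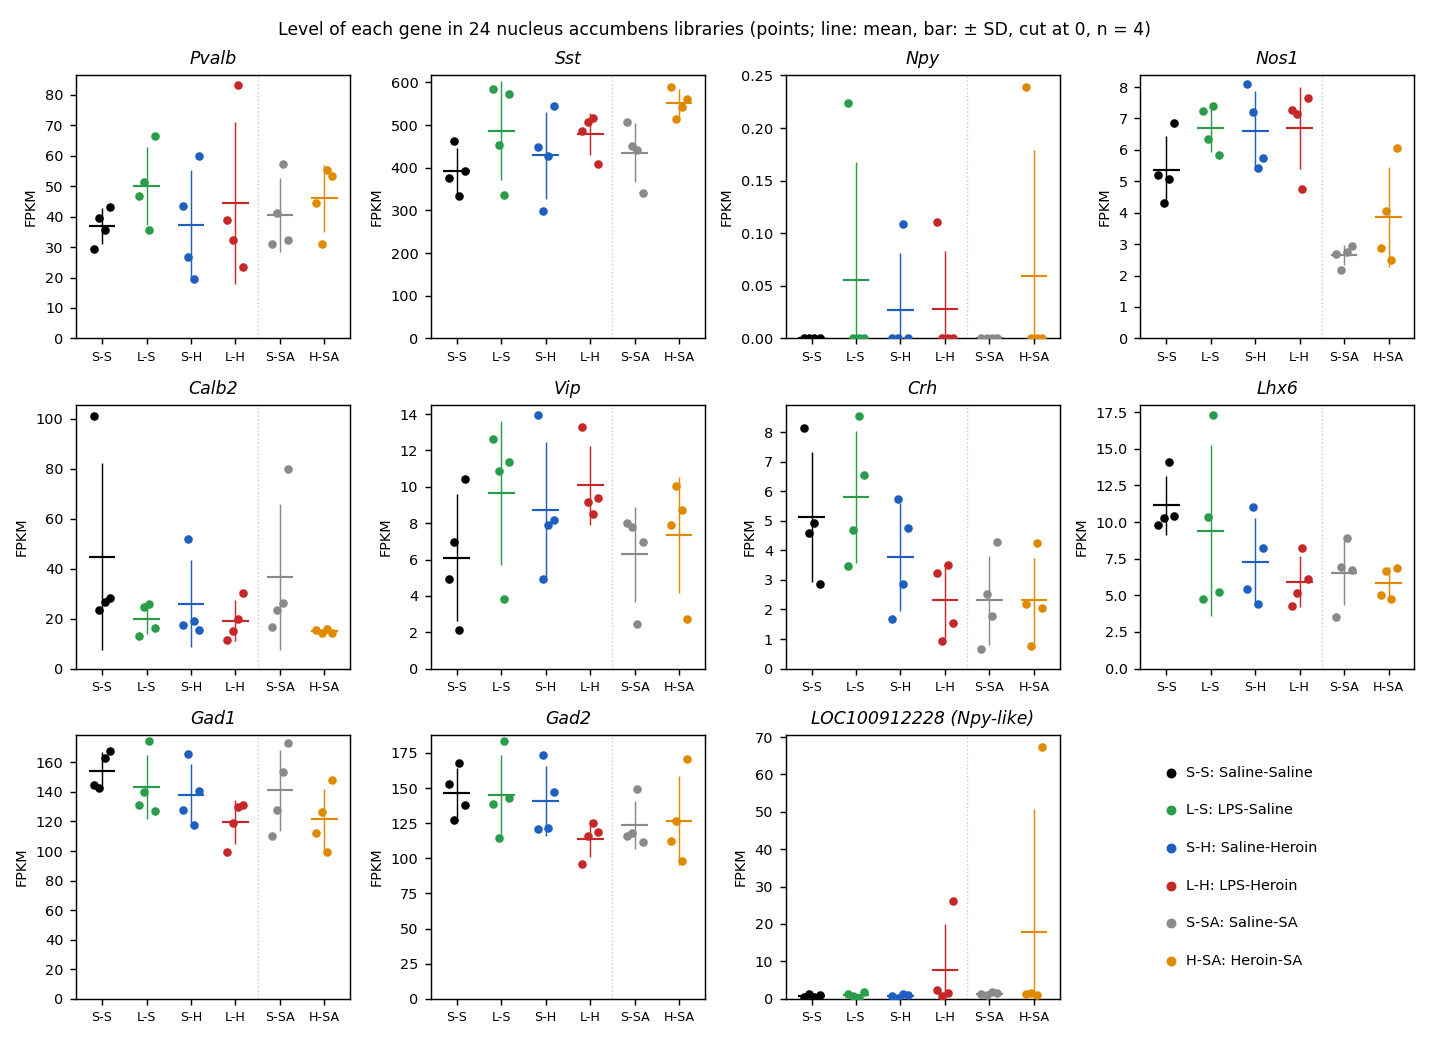
FPKM of the 10 members and of LOC100912228 (vertical axes, from 0) in the 6 groups; each point is 1 library, the horizontal line the group mean and the vertical bar ± SD (n = 4), and the dotted line separates the injection from the SA experiment. Lhx6, Gad1 and Gad2 lie lower in LPS-Heroin than in Saline-Saline without overlap, 3 libraries stand far above the rest in Calb2, and Npy has at most 2 reads in any library.

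Npy (ENSRNOG00000009768, chr4:79557854-79565097, plus strand), the peptide of the somatostatin and nitric oxide class, could not be followed. It had no read in 20 of 24 libraries and 1 or 2 reads in the other 4, which is 0.239 FPKM at most, although Sst and Nos1 of the same class were measured in every library. Just downstream on the same strand, the table lists LOC100912228 (ENSRNOG00000046449, chr4:79573998-79581208), annotated as pro-neuropeptide Y-like. This row was looked up after the Npy values were seen. In 22 libraries it held 0.109 to 2.44 FPKM, on 1 to 21 reads. LPS-Heroin replicate 4 held 26.1 FPKM (236 reads) and Heroin-SA replicate 4 held 67.2 FPKM (581 reads). Both high libraries received heroin, while the other 10 heroin libraries held at most 2.44 FPKM. How the authors' counting treated reads that match both rows is not stated, so Npy and this neighbour are uncertain, and whether reads of Npy were lost was not tested.

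Whether a history of LPS together with heroin goes with another state of the interneuron genes than saline alone was asked by LPS-Heroin against Saline-Saline. Lhx6 and Crh fell, and Gad1 and Gad2 were lower in every library by a smaller amount. Lhx6 was at 9.80, 10.2, 14.1 and 10.4 FPKM in the 4 Saline-Saline libraries and at 4.26, 5.14, 8.25 and 6.09 FPKM in the 4 LPS-Heroin libraries. The highest LPS-Heroin library lay below the lowest Saline-Saline library. The log2 fold change was −0.92 (SE 0.20, limma p = 0.00131), and the exact permutation test gave p = 0.0286 (two-sided, n = 4 against 4), the smallest that 70 arrangements can give. The adjusted p was 0.186. Corticotropin-releasing hormone, the product of Crh, drives the stress axis from the hypothalamus and is also made by some forebrain interneurons. Crh was at 8.15, 4.58, 4.93 and 2.85 FPKM in Saline-Saline and at 3.25, 0.934, 3.502 and 1.54 FPKM in LPS-Heroin. The ranges overlapped in the lowest Saline-Saline library. Its log2 fold change was −1.20 (SE 0.44, limma p = 0.0240, adjusted p = 0.352), with an exact permutation p of 0.0857 (n = 4 against 4).

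A gene is called here when its limma p, unadjusted, is at most 0.05 and it differs by at least 1.3-fold on the log2(FPKM + 0.1) scale. By this rule 2 of the 9 members tested were called in LPS-Heroin against Saline-Saline, both lower, where 5.43% of all 15134 genes tested were called and 2.44% were called lower. Gad1 and Gad2 fell just short of the fold limit. Gad1 was at 145, 143, 163 and 168 FPKM in Saline-Saline and at 99.1, 119, 129 and 131 FPKM in LPS-Heroin. Gad2 was at 153, 127, 168 and 138 FPKM against 95.6, 116, 125.5 and 119 FPKM. Neither gene's groups overlapped. Their log2 fold changes were −0.37 (SE 0.10, limma p = 0.00457, adjusted p = 0.230) and −0.36 (SE 0.11, limma p = 0.00821, adjusted p = 0.261), and the exact permutation p was 0.0286 for each (n = 4 against 4). With no limit on the fold change, 5 members had a limma p of at most 0.05, where 11.3% of all genes tested did. Thus 3 of the 9 members tested, Lhx6, Gad1 and Gad2, had groups without overlap, where 6.86% of all genes tested did.

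The other peptides, the calcium-binding proteins and Nos1 were not called. Sst was at 376, 464, 334 and 392 FPKM in Saline-Saline and at 487, 507, 515 and 408 FPKM in LPS-Heroin, with 3 of 4 LPS-Heroin libraries above every Saline-Saline library. Its log2 fold change of 0.30 (SE 0.11, limma p = 0.0265, exact permutation p = 0.0571) was under the fold limit. Vip had a log2 fold change of 0.90 (95% interval −0.03 to 1.83) and Calb2 of −1.02 (−2.09 to 0.04), with an exact permutation p of 0.114 for each. Nos1 had 0.31 (−0.10 to 0.73) and Pvalb 0.12 (−0.64 to 0.87), and neither passed the test. Whether the log2 fold changes of these members differ from that of Lhx6 was not tested.

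These values depended on single libraries to different degrees. Lhx6 was called without any 1 of the 8 libraries, at log2 fold changes from −1.09 to −0.78. Crh was not called without Saline-Saline replicate 1 (−0.95), LPS-Heroin replicate 2 (−0.86) or LPS-Heroin replicate 4 (−1.08). Gad1 passed the fold limit without Saline-Saline replicate 1 or 2 or LPS-Heroin replicate 3 or 4, and Gad2 without Saline-Saline replicate 2 or 4 or LPS-Heroin replicate 3 or 4. Calb2 came to −0.53 and was not called without Saline-Saline replicate 1, the library with the high choroid plexus genes. The number of members called was 6 without Saline-Saline replicate 2, 5 without Saline-Saline replicate 4 or LPS-Heroin replicate 3, 4 without LPS-Heroin replicate 4 and 1 without LPS-Heroin replicate 2. Over all genes, leaving out 1 library gave 664 to 988 calls, where 822 of 15134 were called with none left out. The limma p-values set the group difference against the spread within groups, moderated over all genes tested. The permutation p-values set it against other arrangements of these 8 libraries.

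**Figure D2:**
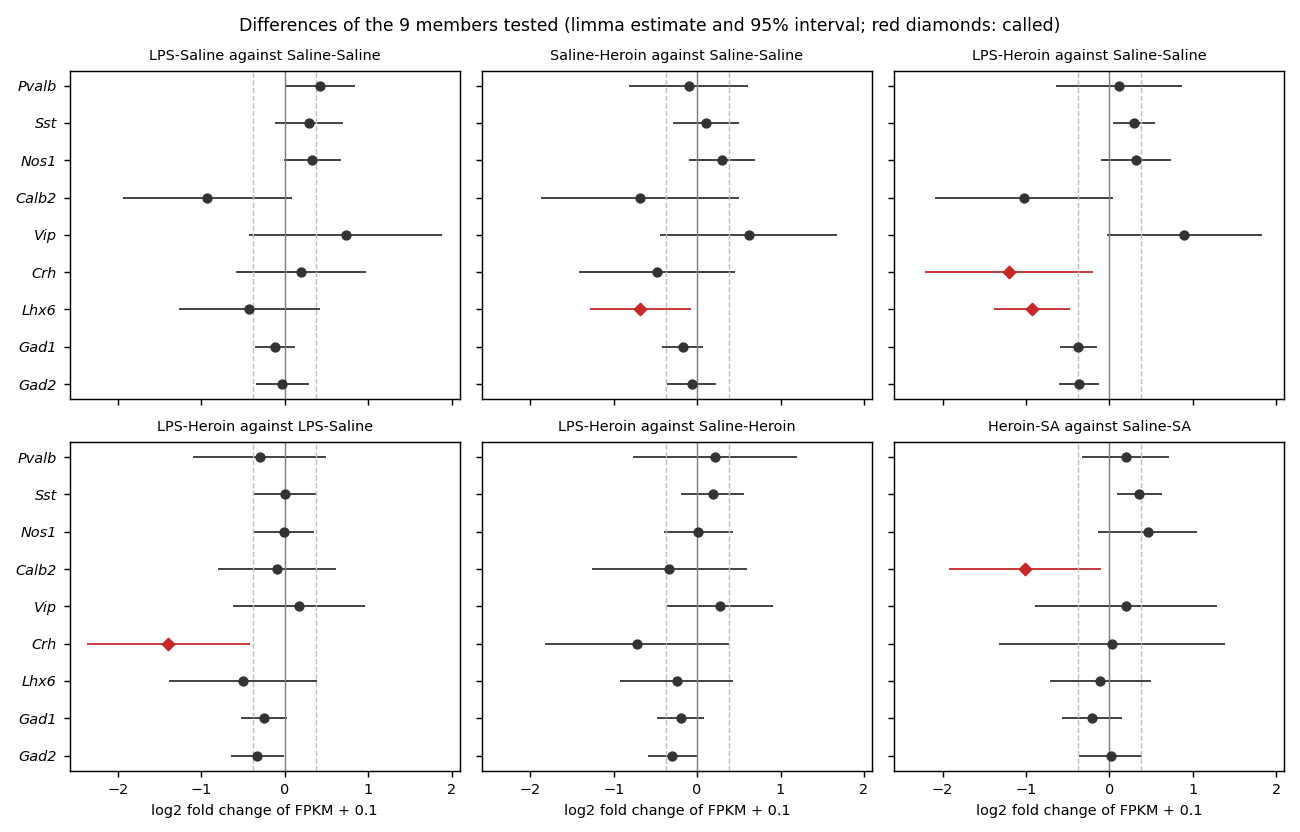
Log2 fold change of FPKM + 0.1 (horizontal axis) of the 9 members tested in 6 comparisons of 4 libraries against 4. Points are limma estimates, lines their 95% intervals, dashed lines the fold limit, and red diamonds the members called. Crh is called in LPS-Heroin against both Saline-Saline and LPS-Saline, Lhx6 in both heroin-injected groups against Saline-Saline, and Calb2 in Heroin-SA.

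The other genes of the pathways were counted in the same comparison. Of 29 other interneuron genes, 1 was called higher and 6 lower, with a median log2 fold change of −0.16, where the median of all genes tested was 0.00059. Nkx2-1, which acts upstream of Lhx6, fell from 3.94 ± 0.406 to 2.03 ± 0.770 FPKM (SD, n = 4 each), a log2 fold change of −0.999 (SE 0.26, limma adjusted p = 0.224). Elfn1, a synaptic adhesion protein that shapes input to somatostatin interneurons, fell by 0.53 on the log2 scale (SE 0.15). Slc32a1, the vesicular GABA transporter of all GABA neurons, fell by 0.54 (SE 0.12), and Trh, a hypothalamic releasing hormone that is also on the hypothalamic list, by 0.71 (SE 0.17). Cck, a peptide of a class of interneurons and also of many cortical pyramidal cells, was the 1 gene called higher, at 368 ± 70.8 against 191 ± 104 FPKM. It was named after its values were seen.

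Among the genes for making, moving and breaking down GABA, 2 of 8 were called, both lower, with a list median of −0.23. They were Slc32a1, which is on both lists, and Slc6a11, a GABA transporter of astrocytes, which fell from 40.9 ± 6.46 to 22.1 ± 3.40 FPKM (log2 fold change −0.88, SE 0.14, limma adjusted p = 0.144). The receptors pointed the other way: of 13 peptide receptors and binding proteins tested, 5 were called higher and 1 lower, with a median of 0.26. Over all 15134 genes tested, 2.99% were called higher and 2.44% lower. Npy1r, a receptor for neuropeptide Y on the receiving cell, rose by 0.55 (SE 0.14, limma adjusted p = 0.205), while Npy2r, which sits mostly on the releasing terminals, fell by 0.78 (SE 0.22). Vipr1, a receptor for VIP, rose by 0.81 (SE 0.29), and Sstr1, a somatostatin receptor, by 0.52 (SE 0.18). Of 7 genes of nitric oxide signalling 0 were called by limma, and 0 had an unadjusted p under 0.05 with no limit on the fold change.

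Markers of other cells and regions moved in the same comparison. Of 11 cortical glutamatergic genes, 7 were called higher (median 0.86), where 2.99% of all genes tested were. Their summed level was 178 to 361 FPKM in Saline-Saline and 487 to 527 FPKM in LPS-Heroin. Of 11 genes of septum and ventral forebrain tested, 6 were called lower (median −0.97), at 74.1 to 159 FPKM summed against 41.6 to 79.8 FPKM. Of 8 genes of thalamus and hypothalamus tested, 4 were called lower, at 24.6 to 78.8 against 16.5 to 18.8 FPKM, with Oxt at 0 in 11 of the 24 libraries. Of 14 medium spiny neuron genes, 0 were called by limma, with a median of 0.10. Of 6 genes of choroid plexus and ependyma 0 were called, of 7 of oligodendrocytes 0, of 6 of astrocytes 0 and of 6 of microglia 1. The part of the neighbouring regions in the values of Lhx6, Crh, Gad1 and Gad2 was not tested.

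**Figure D3:**
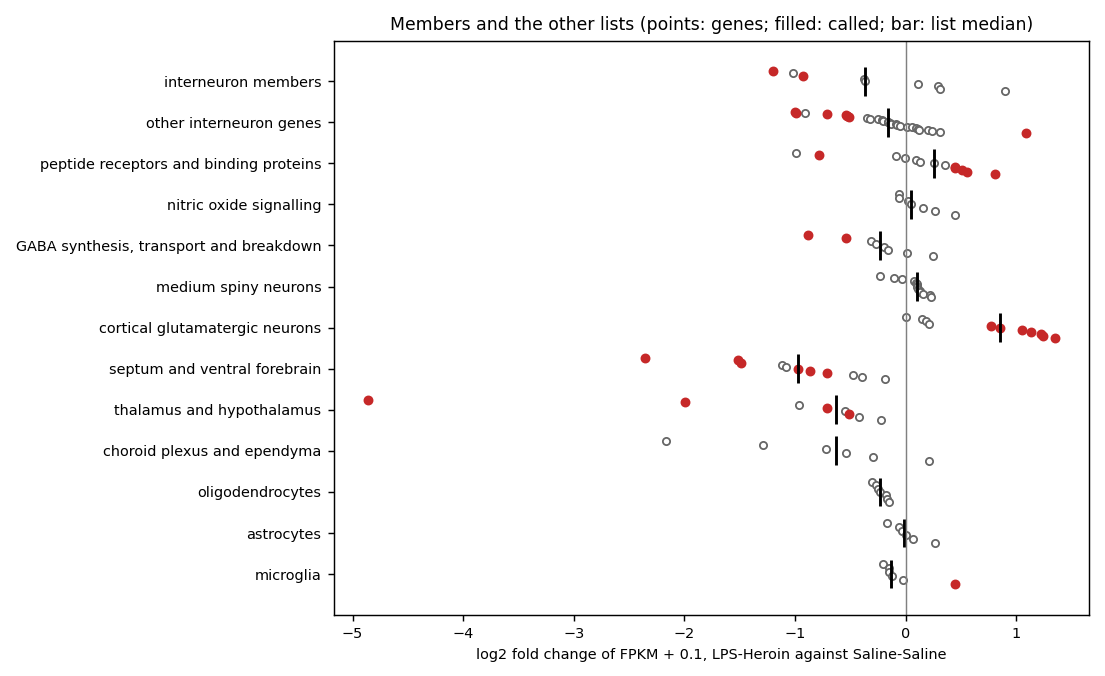
Log2 fold change in LPS-Heroin against Saline-Saline (horizontal axis) of every tested gene of 13 lists (rows); each point is a gene, filled red where called, and black bars are list medians. The members lie on both sides of 0, with 4 of 9 right of it and a median of −0.36. The cortical glutamatergic genes lie right of 0 (0.86) and the septal and ventral forebrain genes furthest left (−0.97), while medium spiny neuron genes cluster near 0 (0.10).

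Heroin without LPS was compared by Saline-Heroin against Saline-Saline, which shares its control rats with the comparison above. Lhx6 fell, and no other member passed. Its Saline-Heroin libraries were at 5.42, 11.03, 4.43 and 8.23 FPKM, of which 3 lay below all Saline-Saline libraries and 1 among them. The log2 fold change was −0.68 (SE 0.27, limma p = 0.0314, adjusted p = 0.75), and the exact permutation p was 0.114 (n = 4 against 4). This was 1 of 9 members tested, where 3.07% of all 15143 genes tested were called and 1.67% were called lower. The call was lost without Saline-Saline replicate 3 (−0.56), Saline-Heroin replicate 1 (−0.57) or Saline-Heroin replicate 3 (−0.48). Without the libraries marked by choroid plexus or hypothalamic genes, Saline-Saline replicate 1 and Saline-Heroin replicate 2, Lhx6 came to −0.96, and Calb2 was called as well at −0.60. Calb2 was also called without Saline-Heroin replicate 2 alone (−1.08), and Nos1 without Saline-Saline replicate 4. Crh was at 1.68, 5.75, 2.87 and 4.77 FPKM, a log2 fold change of −0.48 (95% interval −1.42 to 0.46). Elfn1 was called lower here too, by 0.50 (SE 0.19), and was the 1 gene called of 29 other interneuron genes, with 0 of 13 receptors, 0 of 8 GABA genes and 0 of 7 nitric oxide genes called. Of the markers of other regions, 2 of 11 septal and ventral forebrain genes were called lower (median −0.58, 52.4 to 125.5 FPKM summed in Saline-Heroin) and 1 of 8 thalamic and hypothalamic genes (median −0.56). Of 10 cortical genes 0 were called, with a median of 0.47 and 234 to 567 FPKM summed in Saline-Heroin. Their part in the Lhx6 value was not tested.

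LPS without heroin was compared by LPS-Saline against Saline-Saline, again with the same control rats. By limma 0 of 9 members tested were called, where 2.37% of all 15119 genes tested were, and 0 had an unadjusted p of at most 0.05, where 6.63% of all genes did. Limma-voom on the recovered reads called 0. Pvalb came closest. It was at 46.9, 51.3, 35.7 and 66.6 FPKM in LPS-Saline and at 29.5, 39.7, 35.5 and 43.1 FPKM in Saline-Saline, with 3 of 4 LPS-Saline libraries above all controls (log2 fold change 0.42, SE 0.18, limma p = 0.0506, exact permutation p = 0.114). Nos1 was at 0.33 (−0.01 to 0.67) and Calb2 at −0.93 (−1.94 to 0.08), or at −0.44, not called either, without Saline-Saline replicate 1. Lhx6 was split within the group: 4.78 and 5.24 FPKM in LPS-Saline replicates 1 and 4, and 10.3 and 17.3 FPKM in replicates 2 and 3, the last the highest of all 24 libraries. Without LPS-Saline replicate 3, Pvalb, Sst, Vip and Lhx6 were called. Without Saline-Saline replicate 4, Pvalb and Nos1 were called, without Saline-Saline replicate 2 Calb2, and without LPS-Saline replicate 4 Nos1. Of the receptors 2 of 13 were called higher, Vipr1 by 0.65 (SE 0.27) and Sstr4, a somatostatin receptor, by 0.43 (SE 0.17). Trh, which is also on the hypothalamic list, was called lower of 29 other interneuron genes. Among 8 thalamic and hypothalamic genes tested, 2 were called lower (median −0.56). Called were 0 of 11 septal and ventral forebrain genes (median −0.44) and 0 of 10 cortical genes (median 0.28). The same held for 0 of 6 genes of choroid plexus and ependyma (median −1.14). Their part in the values of this comparison was not tested.

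The effect of heroin in rats with an LPS history was compared by LPS-Heroin against LPS-Saline. Crh fell from 3.46, 4.68, 8.53 and 6.56 FPKM in LPS-Saline to the LPS-Heroin values given above, where 3 of 4 libraries lay below every LPS-Saline library. Its log2 fold change was −1.40 (SE 0.43, limma p = 0.01, adjusted p = 0.977), with an exact permutation p of 0.0571 (n = 4 against 4). It was the 1 member called of 9, where 2.29% of all 15069 genes tested were called and 1.15% were called lower. Crh was called without any 1 of these 8 libraries, at −1.65 to −1.05. Gad2 had a log2 fold change of −0.33 (SE 0.14, limma p = 0.0415, exact permutation p = 0.114), under the fold limit, and passed it without LPS-Saline replicate 2 or LPS-Heroin replicate 3, without which Pvalb was called too. Lhx6 was at −0.50 (95% interval −1.39 to 0.39), with the wide spread of LPS-Saline. Npy1r rose by 0.47 (SE 0.18), the 1 gene called among the 12 receptors tested. Of 11 septal and ventral forebrain genes 1 was called lower (median −0.36, 59.6 to 121 FPKM summed in LPS-Saline), and of 6 thalamic and hypothalamic genes 1 (median −0.08, 18.98 to 20.98 FPKM). Of 10 cortical genes 0 were called, with a median of 0.55 and 173 to 473 FPKM summed in LPS-Saline. Their part in the Crh value was not tested.

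The effect of an LPS history in heroin-injected rats was compared by LPS-Heroin against Saline-Heroin. By limma 0 of 9 members tested were called, where 2.20% of all 15121 genes tested were. Without a fold limit 1 member passed, Gad2, at −0.30 (SE 0.13, limma p = 0.0494, exact permutation p = 0.114), where 4.21% of all genes did, and limma-voom called 0. The intervals remained wide, from −1.82 to 0.38 for Crh and from −0.92 to 0.43 for Lhx6. Without Saline-Heroin replicate 1, Vip was called. Of 29 other interneuron genes 2 were called lower, Trh by 0.48 (SE 0.21) and Nr2f2, a factor of caudal ganglionic interneurons, by 0.68 (SE 0.28). Nr2f2 was at 4.52 ± 2.25 FPKM in Saline-Heroin and 2.58 ± 0.298 FPKM in LPS-Heroin (SD, n = 4 each). Among 7 thalamic and hypothalamic genes, a list that also holds Trh, 1 was called lower (median −0.28). Called were 0 of 11 septal and ventral forebrain genes (median −0.34) and 1 of 11 cortical genes, higher (median 0.33). Their part in these values was not tested.

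Over the 16 injection libraries, the heroin main effect sets the 8 heroin libraries against the 8 saline ones within each LPS history. Crh fell by 0.94 on the log2 scale (SE 0.32, limma p = 0.0107, adjusted p = 0.549), with means of 3.04 against 5.47 FPKM and an exact permutation p of 0.0241 (8 against 8, 4900 arrangements within the LPS history). Lhx6 fell by 0.59 (SE 0.26, limma p = 0.0373, adjusted p = 0.597, exact permutation p = 0.0514), with means of 6.61 against 10.3 FPKM. These were 2 of 9 members tested, where 2.46% of all 15113 genes tested were called and 1.38% were called lower. Gad1 was lower by less than the fold limit (−0.21, SE 0.09, limma p = 0.0255, exact permutation p = 0.0327). Crh was called without any 1 library, whereas Lhx6 was not called without Saline-Saline replicate 3, LPS-Saline replicate 2 or 3, Saline-Heroin replicate 1 or 3 or LPS-Heroin replicate 1 or 2 (log2 fold changes of −0.56 to −0.41). Among receptors Npy1r rose by 0.38 (SE 0.11) and Npy2r fell by 0.49 (SE 0.21), Slc6a11 fell by 0.58 (SE 0.22), and Elfn1 by 0.39 (SE 0.13). In the same contrast, 3 of 10 cortical glutamatergic genes were called higher (median 0.50). Lower were 4 of 11 septal and ventral forebrain genes (median −0.32) and 1 of 7 thalamic and hypothalamic genes (median −0.31). Their part in the values of Crh and Lhx6 was not tested.

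For the LPS main effect limma called 0 of 9 members, where 1.77% of all 15113 genes tested were called, and for the LPS by heroin interaction 0 of 9, where 2.31% were. In both, 0 members had an unadjusted p of at most 0.05, where 6.67% and 4.02% of all genes did, and limma-voom called 0. The interaction of Crh was −0.91 (95% interval −2.29 to 0.46) and that of Lhx6 0.18 (−0.92 to 1.28), so neither an equal nor an unequal effect of heroin in the 2 LPS histories was shown. For the LPS main effect, Calb2 was called without Saline-Saline replicate 2 or LPS-Heroin replicate 4, Vip without Saline-Saline replicate 4, and Vip and Lhx6 without LPS-Saline replicate 3. Nr2f2 fell by 0.72 (SE 0.25), Trh by 0.49 (SE 0.14) and Kcnip2, a potassium channel partner, by 0.69 (SE 0.32), 3 of 29 other interneuron genes. Saline-Saline spread widely, at 5.83 ± 3.64 FPKM for Nr2f2 and 2.78 ± 3.04 FPKM for Kcnip2 (SD, n = 4). Vipr1 rose by 0.58 (SE 0.25). Among 7 thalamic and hypothalamic genes, a list that also holds Trh, 3 were called lower (median −0.49). Called were 0 of 11 septal and ventral forebrain genes (median −0.39) and 0 of 10 cortical genes (median 0.41). Their part in these values was not tested.

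Heroin taken by the rats themselves was compared by Heroin-SA against Saline-SA, in rats separate from those of the injections. Calb2 fell and Sst was higher in every library. Calb2 was at 16.7, 23.5, 26.1 and 79.9 FPKM in Saline-SA and at 15.3, 14.2, 15.8 and 14.1 FPKM in Heroin-SA. All 4 Heroin-SA libraries lay below all Saline-SA libraries. The log2 fold change was −1.01 (SE 0.40, limma p = 0.0325, adjusted p = 0.402), with an exact permutation p of 0.0286, the smallest possible with n = 4 against 4. Without Saline-SA replicate 4 it came to −0.55 and was still called. Without any 1 of the Heroin-SA libraries the call was lost, at log2 fold changes of −1.04 to −0.99.

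Calb2 was 1 of 9 members called, where 5.45% of all 15024 genes tested were called and 2.41% were called lower. Sst was at 507, 451, 441 and 340 FPKM in Saline-SA and at 590, 513, 543 and 562 FPKM in Heroin-SA, without overlap. Its log2 fold change of 0.36 (SE 0.12, limma p = 0.0155, adjusted p = 0.352, exact permutation p = 0.0286, n = 4 against 4) was under the fold limit, which it passed without Saline-SA replicate 1 or 2 or Heroin-SA replicate 2. Thus 2 of 9 members had groups without overlap, where 6.80% of all genes tested did. Nos1 was at 2.69, 2.19, 2.74 and 2.94 FPKM in Saline-SA and at 2.88, 4.05, 2.50 and 6.05 FPKM in Heroin-SA (log2 fold change 0.46, 95% interval −0.13 to 1.05), and it was called without Heroin-SA replicate 3. Lhx6 (−0.11, interval −0.71 to 0.50) and Crh (0.03, −1.32 to 1.38) did not pass here, and whether their values differ from those after injected heroin was not tested.

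Of 29 other interneuron genes, 2 were called lower in Heroin-SA: Trh by 0.90 (SE 0.31) and Crabp1, a retinoic acid binding protein, by 0.53 (SE 0.21). Trh spread widely in Saline-SA, at 12.2 ± 7.27 FPKM against 5.88 ± 0.660 FPKM in Heroin-SA (SD, n = 4 each). How far its call depends on 1 library was not tested. Npy5r, a neuropeptide Y receptor, was called higher by 0.53 (SE 0.19), 1 of 13 receptors tested, and 0 of 8 GABA genes and 0 of 7 nitric oxide genes were called. Of 11 genes of septum and ventral forebrain 2 were called lower, and of 7 of thalamus and hypothalamus 1, which was Trh. Summed, the septal and ventral forebrain genes were at 52.9 to 93.4 FPKM in Saline-SA and at 59.1 to 77.9 FPKM in Heroin-SA, and the thalamic and hypothalamic genes at 19.6 to 47.7 and 17.7 to 20.7 FPKM. Of 14 medium spiny neuron genes and of 10 cortical genes 0 were called, and of 6 astrocyte genes 1. The part of these neighbouring regions in Calb2 was not tested.

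In all 9 comparisons 0 genes had an adjusted limma p of at most 0.05, members included, and limma-voom gave 0 as well, while 607 to 1725 genes had an unadjusted p of at most 0.05. The calls above are therefore calls at an unadjusted p.

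Calb2 stood apart in 3 libraries, 1 in each of 3 groups. It was at 101 FPKM in Saline-Saline replicate 1, 51.9 FPKM in Saline-Heroin replicate 2 and 79.9 FPKM in Saline-SA replicate 4, and at 11.6 to 30.2 FPKM in the other 21 libraries. The thalamic and hypothalamic genes were high in the first 2 of these, as given above, and at 40.7 FPKM in Saline-SA replicate 4. They stood above that value in Saline-Saline replicate 3 (57.3 FPKM) and Saline-SA replicate 2 (47.7 FPKM), where Calb2 was at 26.6 and 23.5 FPKM. Of the 3 libraries with high Calb2, the choroid plexus genes were high in Saline-Saline replicate 1 alone, at 4.26 and 3.38 FPKM in the others. Their part in the Calb2 values was not tested.

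Nos1, which makes nitric oxide, is given by experiment as a description. It was at 4.30 to 8.10 FPKM in the 16 injection libraries and at 2.19 to 6.05 FPKM in the 8 SA libraries, with Heroin-SA replicates 2 and 4 at 4.05 and 6.05 FPKM. Saline-SA, at 2.64 ± 0.320 FPKM (SD, n = 4), lay below all injection libraries. The experiments differ in surgery, housing, time of tissue and share of mitochondrial reads, which cannot be told apart, and no test between them was made.

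The members were set against each other across libraries. Over 24 libraries and 36 pairs of the 9 members, 13 pairs had an adjusted permutation p of at most 0.05, 7 with a positive and 6 with a negative Pearson r. Lhx6 and Gad1 rose and fell together (r = 0.82, rho = 0.85, permutation p = 1e-05 for each, the smallest that 100000 permutations give, adjusted p = 0.00018). The relation was 0.89 in the 16 injection libraries, 0.76 in the 8 SA libraries, 0.80 after group means were taken off and 0.78 without the 2 libraries farthest in Lhx6. Gad1 and Gad2 had r = 0.74 (rho = 0.66, permutation p = 3e-05 and 0.00063, adjusted p = 0.00036), with 0.84 and 0.56 in the injection and SA libraries and 0.65 without the 2 farthest. The ratio of Gad1 to Gad2 was 1.04 ± 0.140 (SD) over the 24 libraries and highest, at 1.55, in Saline-SA replicate 4.

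Sst and Calb2 moved in opposite directions, with r = −0.77 and rho = −0.83 (permutation p = 1e-05 for each, adjusted p = 0.00018). The relation was −0.71 in the injection libraries, −0.95 in the SA libraries and −0.78 without the 2 farthest libraries in Sst. This last value kept Saline-Saline replicate 1 and Saline-SA replicate 4, with Calb2 at 101 and 79.9 FPKM. The relation without these libraries was not tested. Sst was also inverse to Gad1 (r = −0.68, rho = −0.61, permutation p = 0.00023 and 0.00221, adjusted p = 0.0015), with −0.66 and −0.71 within the experiments and −0.62 without the 2 farthest. Vip was inverse to Gad2, with r = −0.68 and rho = −0.50 (permutation p = 0.00025 and 0.0138, adjusted p = 0.0015). It was −0.74 and −0.84 within the experiments and −0.66 without the 2 farthest. Pvalb and Sst had r = 0.54 (rho = 0.61, permutation p = 0.00688 and 0.00238, adjusted p = 0.0206), with 0.59 and 0.35 within the experiments and 0.58 without the 2 farthest. The points share library, dissection and depth, so these relations describe the libraries.

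**Figure D4:**
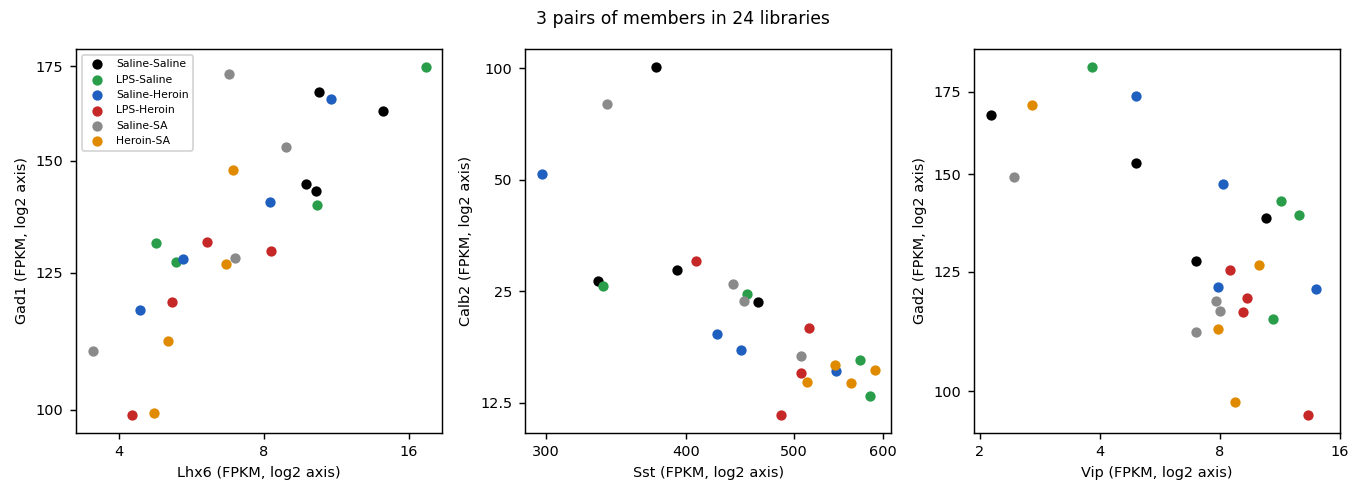
FPKM of 3 pairs of members on log2 axes; each point is 1 of 24 libraries, coloured by group. Gad1 rises with Lhx6 (r = 0.82), Calb2 falls as Sst rises (r = −0.77), with 3 libraries over 50 FPKM of Calb2, and Gad2 falls as Vip rises (r = −0.68).

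Genes most like each member across the 24 libraries are given with Pearson's r on log2(FPKM + 0.1) as a description. Those of Vip were Fam81a (0.94), Slc17a7 (0.93), the vesicular glutamate transporter of cortical neurons, and Neurod6 (0.93), a factor of cortical pyramidal neurons. Slc17a7 ran from 36.6 to 374 FPKM over the libraries. Those of Gad2 were Aldh5a1 (0.86), which breaks down GABA's aldehyde product, Slc32a1 (0.86) and Sdc2 (0.82). Among those of Gad1 were Serpine2 (0.88) and Cacna2d2 (0.87), a calcium channel subunit. Those of Lhx6 were Cacna2d2 (0.90), Peg3 (0.88) and Gnas (0.88).

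Nos1 was closest to Bicd1 (0.96), Gabrg3 (0.95), a GABA-A receptor subunit, and Zfp445 (0.95), with 0.85, 0.88 and 0.81 after group means were taken off. Calb2 was closest to Ctbp2 (0.86, and 0.73 without the 2 farthest libraries), Podxl2 (0.86) and Lrrc16b (0.85). Sst was closest to Ccng1 (0.84), Ephx4 (0.81) and Vopp1 (0.81). Among the genes closest to Pvalb were Diras1 (0.75) and Cplx1 (0.71), a regulator of fast transmitter release. Crh was closest to Abhd3 (0.76), Ccdc184 (0.75) and Ubash3b (0.75), at the few reads given above.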

How the data were processed

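Total RNA of the NAc was made into directional libraries from polyadenylated RNA. Per the labels, reads were trimmed with fastp, aligned with HISAT2 to rn6 and counted with featureCounts; versions and the use of strand are not given in the sources used here. The authors deposited FPKM values, and multiplied by gene length these were whole multiples of 1 step per library, so whole reads were recovered (100% of values within 0.02 reads).

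log2(FPKM + 0.1) was fitted with limma-trend (limma 3.58.1, R 4.3.3) over genes with mean FPKM of at least 0.5, on the 8 libraries of 2 groups, or on 16 in a 2 by 2 model. Npy did not reach this level. Adjusted p-values are Benjamini-Hochberg over all genes tested. The fit was run on simulated data with known changes and 1 setting of the spread for all genes. That setting leaves out the marker differences between libraries given above, so it checks the fitting steps only. Single members were tested with two-sided exact permutation tests. Columns not used numbered 0. The members and the gene lists were chosen with earlier results of these data known. Named were all members, up to 4 called genes with the smallest p of 4 related lists per comparison, and the 3 genes most like each member. Of these last, 2 are not reported here. Alternatives were other pseudocounts (1, 0.01), filters, quantile normalization, all 24 libraries in one fit, limma-voom on recovered reads, a replicate block and leaving out libraries. Genes of the lists without a row were not analysed here.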

Additional observations from a re-analysis of the deposited data

Results flagged for a closer look

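In 60 groups of 4 libraries, the gap between the highest or lowest library and its nearest neighbour was set against the range of the group by Dixon's criterion. The groups included those of LOC100912228, a row looked up after the Npy values were seen. Of the 60, 6 passed, 2 of them in that row. Chance flags about 1 in 20 of groups chosen beforehand, so with this row the count is not set against chance. Calb2 was far above the other 3 libraries of its group in Saline-Saline replicate 1 (101 FPKM against 23.4 to 28.4), in Saline-Heroin replicate 2 (51.9 against 15.2 to 19.2) and in Saline-SA replicate 4 (79.9 against 16.7 to 26.1). Lhx6 was above the rest of its group in Saline-Saline replicate 3 (14.1 FPKM against 9.80 to 10.4). LOC100912228, the row next to Npy, was high in LPS-Heroin replicate 4 (26.1 FPKM against 0.832 to 2.44) and in Heroin-SA replicate 4 (67.2 against 1.04 to 1.56). The cause was not tested for any of the 6.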

How the results depend on the processing

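No called value changed sign under any alternative. The number of members called in LPS-Heroin against Saline-Saline was 2, and 5 with no limit on the fold change, 4 after quantile normalization (Gad1 and Gad2 added) and 5 with limma-voom (Vip added to these). Over all genes, the alternatives that kept every library gave 710 to 1704 calls in that comparison, where the main fit gave 822. In Saline-Heroin against Saline-Saline it was 1, and 0 with all 24 libraries in one fit. It was 2 without Saline-Saline replicate 1 and Saline-Heroin replicate 2 together, an alternative chosen after seeing the data. Over all genes, the alternatives other than leaving out 1 library gave 388 to 995 calls there, where the main fit gave 465. With no fold limit it was 2 in place of 1 in LPS-Heroin against LPS-Saline, 1 in place of 0 in LPS-Heroin against Saline-Heroin and 2 in place of 1 in Heroin-SA against Saline-SA. Over all genes, the alternatives that kept every library gave 685 to 1725 calls in Heroin-SA against Saline-SA, where the main fit gave 819. With all 24 libraries in one fit Heroin-SA also gave 2 members (Nos1 added), and 78 genes there had an adjusted p of at most 0.05. The cause was not tested.

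Same-numbered libraries did not deviate together in every pair (r from −0.15 to 0.15), so the numbers are not taken as a pairing. With the replicate block, 2 members (Pvalb, Vip) were called in LPS-Saline against Saline-Saline in place of 0, and 0 in Saline-Heroin against Saline-Saline in place of 1 (Lhx6 lost). In LPS-Heroin against Saline-Saline the block gave 3, with Vip added. Over all genes, the alternatives that kept every library, the block among them, gave 292 to 1002 calls in LPS-Saline against Saline-Saline. The main fit gave 358 there.

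Leaving out 1 library gave 0 to 4 members called in LPS-Saline, 0 to 2 in Saline-Heroin and 1 to 6 in LPS-Heroin, each against Saline-Saline. Over all genes these calls were 310 to 625, 366 to 727 and 664 to 988. Leaving out 1 library gave 1 to 3 members in LPS-Heroin against LPS-Saline, 0 to 1 in LPS-Heroin against Saline-Heroin and 0 to 2 in Heroin-SA. For the LPS main effect it gave 0 to 2 and for the heroin main effect 1 to 2. Over all genes these were 295 to 428, 301 to 446, 645 to 1211, 214 to 423 and 304 to 492. Over all genes, calls with no fold limit were 1002 in place of 358, 995 in place of 465 and 1704 in place of 822 for LPS-Saline, Saline-Heroin and LPS-Heroin against Saline-Saline. They were 693 for 345, 637 for 332 and 1725 for 819 for LPS-Heroin against LPS-Saline, LPS-Heroin against Saline-Heroin and Heroin-SA. For the LPS and heroin main effects and the interaction they were 1008 for 267, 1226 for 372 and 607 for 349. With no filter on low values the calls were 582 in LPS-Saline against Saline-Saline, 548 in LPS-Heroin against LPS-Saline, 524 in LPS-Heroin against Saline-Heroin, 516 and 628 for the LPS and heroin main effects and 565 for the interaction. Without LPS-Saline replicate 3 they were 625 in LPS-Saline against Saline-Saline and 423 for the LPS main effect, and without Saline-Heroin replicate 2 they were 727 in Saline-Heroin against Saline-Saline. Npy, at 0 to 2 reads per library, stayed under the level needed for the limma fit, and why was not tested. Crh had the fewest reads of the 9 members tested, 13 to 157 per library. For single genes of the other lists, dependence on 1 library was not examined.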
